A study of Bos taurus with 8 samples.

Results

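Antigen presentation genes were followed in bovine testis between birth and adulthood. The group held 8 genes, taken from the gene count table by their symbols out of 30983 genes: B2M, TAP1, TAP2 and TAPBP of the class I pathway, CD74 and BOLA-DRA of the class II pathway, and the regulators CIITA and NLRC5. Of the 8 genes, 7 had enough counts to be tested and NLRC5 did not. Immature testes came from 3 calves of 1 day after birth that were castrated, and mature testes from 3 bulls of 24 months that were slaughtered. All animals were Chinese Red Steppes cattle from the same farm, and the labels name no treatment or allele for either group. Each library was made from the testicular lobule tissue of 1 animal after oligo(dT) selection of mRNA, so every value is an average over all cells of that tissue. Differences of age and of collection cannot be told apart in this design.

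Nucleated cells show peptides to T cells on major histocompatibility complex (MHC) molecules. Class I molecules carry peptides from proteins made inside the cell: the proteasome cuts the protein, TAP1 and TAP2 together pump the peptides into the endoplasmic reticulum, tapasin (TAPBP) holds the transporter beside the waiting heavy chain, and beta-2-microglobulin (B2M) is the light chain of the finished molecule. Class II molecules, such as the DR molecule with the alpha chain BOLA-DRA, carry peptides from proteins taken up by macrophages, dendritic cells and B cells, and the invariant chain CD74 blocks their groove until they reach the endosome. CIITA is the master regulator of class II genes and NLRC5 a related regulator of class I genes. The testis is known as an immune-privileged organ, and the haploid germ cells that fill the adult tubule are known for low class I levels in other mammals.

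Library totals ran from 14139087 to 15846257 counts, and within a group the libraries differed by far more than counting error, with a chi-square per degree of freedom from 10.4 to 42.6. The labelled tissue was checked with marker lists. Germ cell markers, led by PRM1, ODF2 and TNP2, summed to 105 to 112 counts scaled to a common library size (CPM) in immature and to 12272 to 19075 CPM in mature testes, and Sertoli markers, led by CLU, INHA and AMH, to 9947 to 13330 CPM and 1577 to 1748 CPM. Leydig markers, led by INSL3, CYP17A1 and STAR, were at 1801 to 2988 CPM and 1520 to 2861 CPM. Peritubular markers, led by MYH11, ACTA2 and TAGLN, were at 1312 to 2408 CPM and 515 to 549 CPM. Of the markers for lymph node or epididymis, CRISP1, CXCL13 and FDCSP did not exceed 1.07 CPM in any library, and CR2, also a B cell marker, rose from 1.65 to 3.15 CPM in immature to 4.69 to 11.0 CPM in mature testes (log2 fold change 1.67, SE 0.38). In bulk tissue, fewer cells of a type and less RNA per cell cannot be told apart.

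Levels of the members are given in CPM scaled with edgeR's TMM factors, as mean ± SD over 3 animals, and changes as log2 of mature over immature from edgeR's quasi-likelihood test. A gene is said to have risen or fallen where the Benjamini-Hochberg adjusted p over all 19972 tested genes was under 0.05 and the log2 fold change was beyond 1 in size. By this rule 5 of the 7 tested members fell in mature testes and 0 rose. Among all tested genes 30.4% fell and 31.7% rose. The median log2 fold change was -1.91 over the 7 members and -0.04 over all tested genes. All 7 had an adjusted p under 0.05 with a negative change, as had 39.3% of tested genes, and in 6 of the 7 every mature library lay below every immature library, as in 40.9% of tested genes. The transcripts' lengths were not used, so levels are compared between ages and not between genes.

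B2M, the light chain shared by class I molecules, had 274, 264 and 175 CPM in the immature libraries 1 to 3 and 53.2, 43.5 and 37.1 CPM in the mature libraries 1 to 3. The groups lay far apart, and immature replicate 3 was the lowest of its group. The mean went from 238 ± 54.6 to 44.6 ± 8.09 CPM (SD, n = 3), a 5.33-fold fall. On the log2 scale the change was -2.42 (SE 0.21, edgeR adjusted p = 1.19e-05), within the lowest 11.0% of all tested genes.

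TAPBP, which encodes tapasin, had 657, 669 and 449 CPM in immature and 140.4, 155 and 129 CPM in mature testes. Again no mature library reached the immature range, and immature replicate 3 was the lowest of the calves. Its mean fell from 592 ± 124 to 141 ± 13.0 CPM (SD, n = 3), by 4.19-fold (log2 fold change -2.07, SE 0.17, edgeR adjusted p = 8.16e-06).

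The peptide pump did not pass the fold threshold. TAP1 had 44.5, 41.9 and 20.6 CPM in immature and 20.9, 20.8 and 17.9 CPM in mature testes, so that immature replicate 3 lay inside the mature range and the groups overlapped. Its mean was 35.7 ± 13.1 CPM in immature and 19.9 ± 1.69 CPM in mature testes (SD, n = 3), with a log2 fold change of -0.84 (SE 0.27, edgeR adjusted p = 0.0205). Without immature replicate 3 the log2 fold change was -1.12 (SE 0.14, edgeR adjusted p = 0.000102), and TAP1 was then called lower. With any other single library left out, the edgeR adjusted p was 0.0564 to 0.0934, above the threshold.

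TAP2, the other subunit of the pump, had 10.4, 9.85 and 10.3 CPM in immature and 6.33, 6.04 and 4.21 CPM in mature testes. The 3 immature libraries differed little from each other, and all lay above the mature ones. The mean was 10.2 ± 0.293 CPM in immature and 5.52 ± 1.15 CPM in mature testes (SD, n = 3), with a log2 fold change of -0.88 (SE 0.22, edgeR adjusted p = 0.00566) that also missed the fold threshold. Both pump genes passed it with upper-quartile factors, with -1.05 for TAP1 and -1.08 for TAP2, a scaling that moved the median of all genes by -0.20.

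Of the class II genes, CD74 had 1093, 901 and 459.9 CPM in immature and 246, 249.7 and 177 CPM in mature testes. The calves' libraries spread widely, yet the lowest of them stood above the highest of the bulls. The mean fell by 3.65-fold, from 818 ± 325 to 224 ± 41.0 CPM (SD, n = 3), and the log2 fold change was -1.87 (SE 0.32, edgeR adjusted p = 0.00111).

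BOLA-DRA, the alpha chain of the DR molecule, had 261, 284 and 106 CPM in immature and 76.3, 61.2 and 35.4 CPM in mature testes. Here immature replicate 3 was nearer to the bulls than to the other calves. The mean fell by 3.77-fold, from 217 ± 96.8 to 57.6 ± 20.7 CPM (SD, n = 3), with a log2 fold change of -1.91 (SE 0.44, edgeR adjusted p = 0.00624).

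CIITA, on which class II transcription depends, had 20.6, 17.9 and 4.63 CPM in immature and 4.01, 3.49 and 2.07 CPM in mature testes. These stood on 308, 277 and 70 counts and on 64, 52 and 30 counts. Immature replicate 3 lay just above the highest mature library and far below the other calves. The mean fell by 4.50-fold, from 14.4 ± 8.57 to 3.19 ± 1.00 CPM (SD, n = 3), and the log2 fold change was -2.17 (SE 0.55, edgeR adjusted p = 0.00773).

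NLRC5 was barely detected. It had 6, 8 and 3 counts in the immature libraries and 0, 3 and 1 counts in the mature libraries, in all 17 against 4. The mature library without a count allows up to 0.188 CPM, the level of 3 counts, for counting error only. Fitted without the filter on low counts, the log2 fold change was -1.91 (SE 0.91, edgeR adjusted p = 0.0907) and was not called, so a change in NLRC5 was not detectable at this depth.

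**Figure D1:**
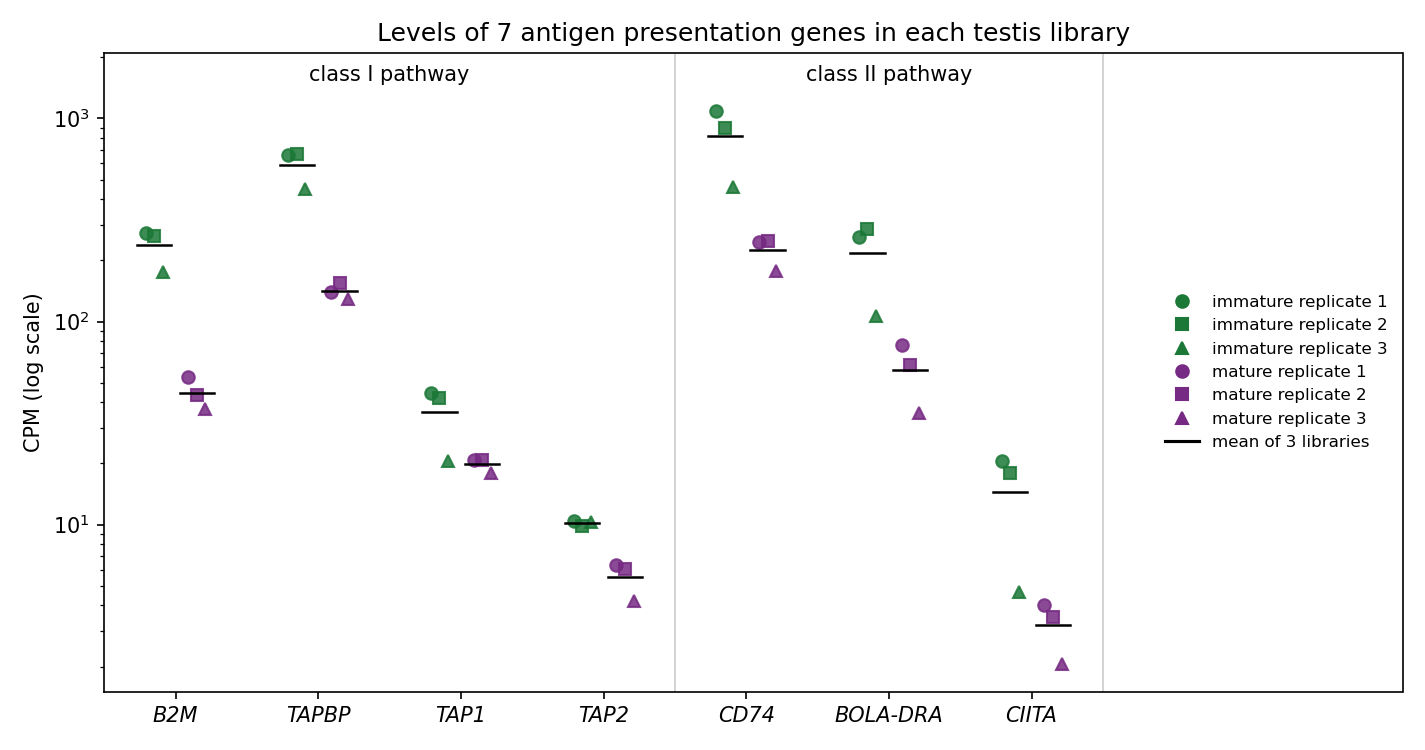
Level of each of the 7 tested genes in each library, in TMM-scaled CPM on a log axis, with immature libraries in green, mature libraries in purple, a symbol per replicate number and a black line at the mean of 3 libraries. Every mature library lies below every immature one except for TAP1, whose immature replicate 3, at 20.6 CPM, lies among the mature libraries at 17.9 to 20.9 CPM.

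The rest of the pathway was read through 10 lists of its genes, which held 95 tested genes including the members. Of these, 54 fell and 6 rose, and the median log2 fold change was -1.67. Leaving the members out, 49 of 88 fell (55.7%, against 30.4% of all tested genes) and 6 rose. Without immature replicate 3, 59 of 96 fell and 4 rose.

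Among the class I heavy chains and related genes, 4 of 5 fell, 0 rose and the median was -1.87. BOLA, a class I heavy chain gene, had 1004, 639 and 670.2 CPM in immature and 154, 173 and 90.1 CPM in mature testes (log2 fold change -2.47, SE 0.29). MR1, which presents vitamin metabolites, fell by 1.87 on the log2 scale. FCGRT, the heavy chain of the neonatal Fc receptor and like class I chains a partner of B2M, fell by 2.60 on the log2 scale. BOLA-NC1, a non-classical chain, fell by 1.26 on the log2 scale (edgeR adjusted p = 0.0248), with overlapping groups. JSP.1, another heavy chain, had 113, 337 and 71.7 CPM in immature and 282, 108 and 200.1 CPM in mature testes, and its spread within each age exceeded the log2 difference of 0.18 (SE 0.63).

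Some bovine class I heavy chains, and some class II chains, have near-identical gene copies that vary between animals. The split of reads among such copies is uncertain. Sums over all entries described as such chains, a choice made after the values were seen, depend less on that split. The 12 class I heavy chain entries summed to 1895, 1546 and 1254 CPM in immature and 607, 532 and 478 CPM in mature testes. The means of these sums, 1565 ± 321 and 539 ± 64.4 CPM (SD, n = 3), differed by 2.90-fold. JSP.1 alone held 174 CPM of the immature mean and 197 CPM of the mature mean. The size of the difference thus depends on this entry, and without it the difference is larger. The 20 class II chain entries summed to 687, 660.0 and 304 CPM in immature and 179, 161 and 103 CPM in mature testes, a 3.72-fold difference of the means. In both sums all mature libraries lay below all immature ones, and the two-sided exact permutation p was 0.1, the smallest that 3 against 3 libraries can give.

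In the class I loading list, which holds 4 of the members, 6 of 11 genes fell and 1 rose, with a median of -1.67. The largest falls were those of the aminopeptidases that trim peptides in the endoplasmic reticulum, ERAP2 (-3.25, SE 0.17) and ERAP1 (-2.83, SE 0.22). The chaperone CANX and the aminopeptidase LNPEP fell by 1.67 and 1.73 on the log2 scale. CALR and PDIA3, the chaperones that work beside tapasin, had -0.41 and -0.98 and were not called. TAPBPL, a tapasin-like peptide editor that works apart from the transporter, went the other way. It had 58.9, 47.6 and 38.1 CPM in immature and 108, 101 and 100.5 CPM in mature testes (log2 fold change 1.10, SE 0.16, edgeR adjusted p = 0.000286). Without immature replicate 3 its log2 fold change was 0.95 and it was no longer called.

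In the immunoproteasome, the form of the proteasome induced by interferon gamma, 3 of 5 genes fell and 0 rose. The catalytic subunit PSMB8 had 58.5, 50.9 and 31.2 CPM in immature and 17.7, 16.5 and 12.1 CPM in mature testes (log2 fold change -1.60, SE 0.25). The activator subunits PSME1 and PSME2 fell by 1.68 and 1.80 on the log2 scale. The catalytic subunits PSMB9 (-0.77, SE 0.27) and PSMB10 (-0.76, SE 0.18) were not called, though without immature replicate 3 PSMB9 reached -1.04 and was called lower. In a list of constitutive and other proteasome genes 2 of 7 rose, PSME4 and PSMA8, and 1 fell, PSMA7. The share that rose was near the 31.7% of all tested genes. The difference between the lists was not tested. PSMB5, PSMB6 and PSMB7, the constitutive subunits that PSMB8, PSMB9 and PSMB10 replace, had 0.78 (SE 0.13), -0.17 and 0.36 and were not called. PSME4, an activator known from spermatids in mouse, rose by 2.16 (SE 0.13). The alpha subunit PSMA8, a testis form known from mouse meiosis, rose from 1.07, 1.68 and 1.52 CPM to 28.9, 22.9 and 25.9 CPM (log2 fold change 4.17, SE 0.23), while PSMA7, the subunit it replaces, fell by 1.77 on the log2 scale.

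Among class II chains and peptide exchange genes, the list that holds CD74 and BOLA-DRA, 8 of 11 tested genes fell and 0 rose, with a median of -1.96. BOLA-DRB3, the beta chain that pairs with BOLA-DRA, had 127, 130.5 and 62.0 CPM in immature and 31.4, 26.6 and 14.3 CPM in mature testes (log2 fold change -2.14, SE 0.38). The peptide exchange factor made of BOLA-DMA and BOLA-DMB fell in both chains, by 2.36 and 1.96 on the log2 scale. The DQ chains BOLA-DQA5 (-3.72, SE 0.33) and BOLA-DQB (-2.19, SE 0.64) fell as well. BOLA-DQA2 fell by 3.83 with an SE of 1.11, from 24.3, 76.5 and 9.20 CPM to 0.251, 5.37 and 2.14 CPM, while BOLA-DQA1 was not called (-1.03, SE 0.89). BOLA-DOA (-0.48, SE 0.47) and BOLA-DOB (-0.88, SE 0.63), the chains of the inhibitor of that exchange factor, were not called either. BOLA-DYA and BOLA-DYB, chains found in ruminants, were too low to be tested. Outside the list, LA-DRB, an entry with the same description as BOLA-DRB3 that was picked after its values were seen, rose from levels of 0.794 to 1.41 CPM in immature to levels of 2.28 to 4.13 CPM in mature testes (log2 fold change 1.54, SE 0.37, edgeR adjusted p = 0.00473).

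Of the endosomal proteases and related genes, 3 of 9 tested genes fell and 1 rose, close to the background share that fell, and the median was -0.60. CTSS, the cathepsin that removes CD74 from class II molecules, fell by 2.05 (SE 0.35), the cathepsin CTSB fell by 2.67 (SE 0.16) and the asparagine-specific protease LGMN fell by 3.34 (SE 0.16) on the log2 scale. CTSF, a cathepsin that can process CD74 in mouse macrophages, rose by 1.04 (SE 0.10), and by 0.97 without immature replicate 3, where it was not called.

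Of the regulators of MHC transcription, CIITA included, 4 of 11 tested genes fell and 1 rose, with a median of -0.56. The share that fell was near the 30.4% of all tested genes. CIITA acts by binding to a complex of RFX and NFY factors on the promoter. RFX5, the DNA-binding RFX subunit, had 23.1, 24.9 and 23.3 CPM in immature and 83.2, 75.5 and 85.9 CPM in mature testes (log2 fold change 1.78, SE 0.12, edgeR adjusted p = 2.08e-06). Its partner RFXAP went from 30.0, 31.0 and 24.1 CPM to 7.83, 8.12 and 6.62 CPM (log2 fold change -1.91, SE 0.17). For both, the groups stood well apart. The RFX subunit RFXANK (-0.77), the NFY subunits NFYA (0.30), NFYB (-0.56) and NFYC (-0.17), CREB1 (-0.49) and the myeloid and B cell factor IRF8 (0.43) were not called. IRF1, which is induced by interferon gamma and switches on class I genes, fell by 2.05 (SE 0.29), and IRF2 by 2.21 (SE 0.21) on the log2 scale.

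Interferon gamma is the main inducer of both pathways. In its signaling list 4 of 7 tested genes fell and 0 rose. The receptor chains IFNGR2 and IFNGR1 fell by 3.35 (SE 0.24) and 2.41 (SE 0.24) on the log2 scale. SOCS1, an inhibitor of this signal, fell by 2.08 (SE 0.55) and was highest in immature replicate 3, with 14.7 CPM against 4.22 and 3.95 CPM in the other calves. Without that calf SOCS1 fell by 1.19 (SE 0.31) on the log2 scale. The ligand IFNG was too low to be tested with all libraries, at 14, 11 and 4 counts in immature and 0, 0 and 2 counts in mature testes. Without immature replicate 3 it passed the filter on the counts of the other calves. It was then called lower on these few counts (log2 fold change -3.99, SE 0.89, edgeR adjusted p = 0.00329).

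Of the wider interferon response, 17 of 23 genes fell and 0 rose, with a median of -2.14. The antiviral gene MX1 had 82.8, 80.7 and 21.8 CPM in immature and 5.45, 8.45 and 4.21 CPM in mature testes (log2 fold change -3.35, SE 0.57). The chemokine CXCL10 (-3.34, SE 0.31) and the antiviral genes RSAD2 (-3.12, SE 0.36) and OAS1Y (-3.04, SE 0.66) fell by about as much. Of the co-stimulation and checkpoint genes, 4 of 6 fell: ICOSLG (-2.77), CD58 (-2.46), CD40 (-1.40) and CD86 (-1.17). PDCD1LG2, a ligand of the inhibitory receptor PD-1, rose by 3.30 (SE 0.53), and ICAM1 was listed at 0 in every library.

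**Figure D2:**
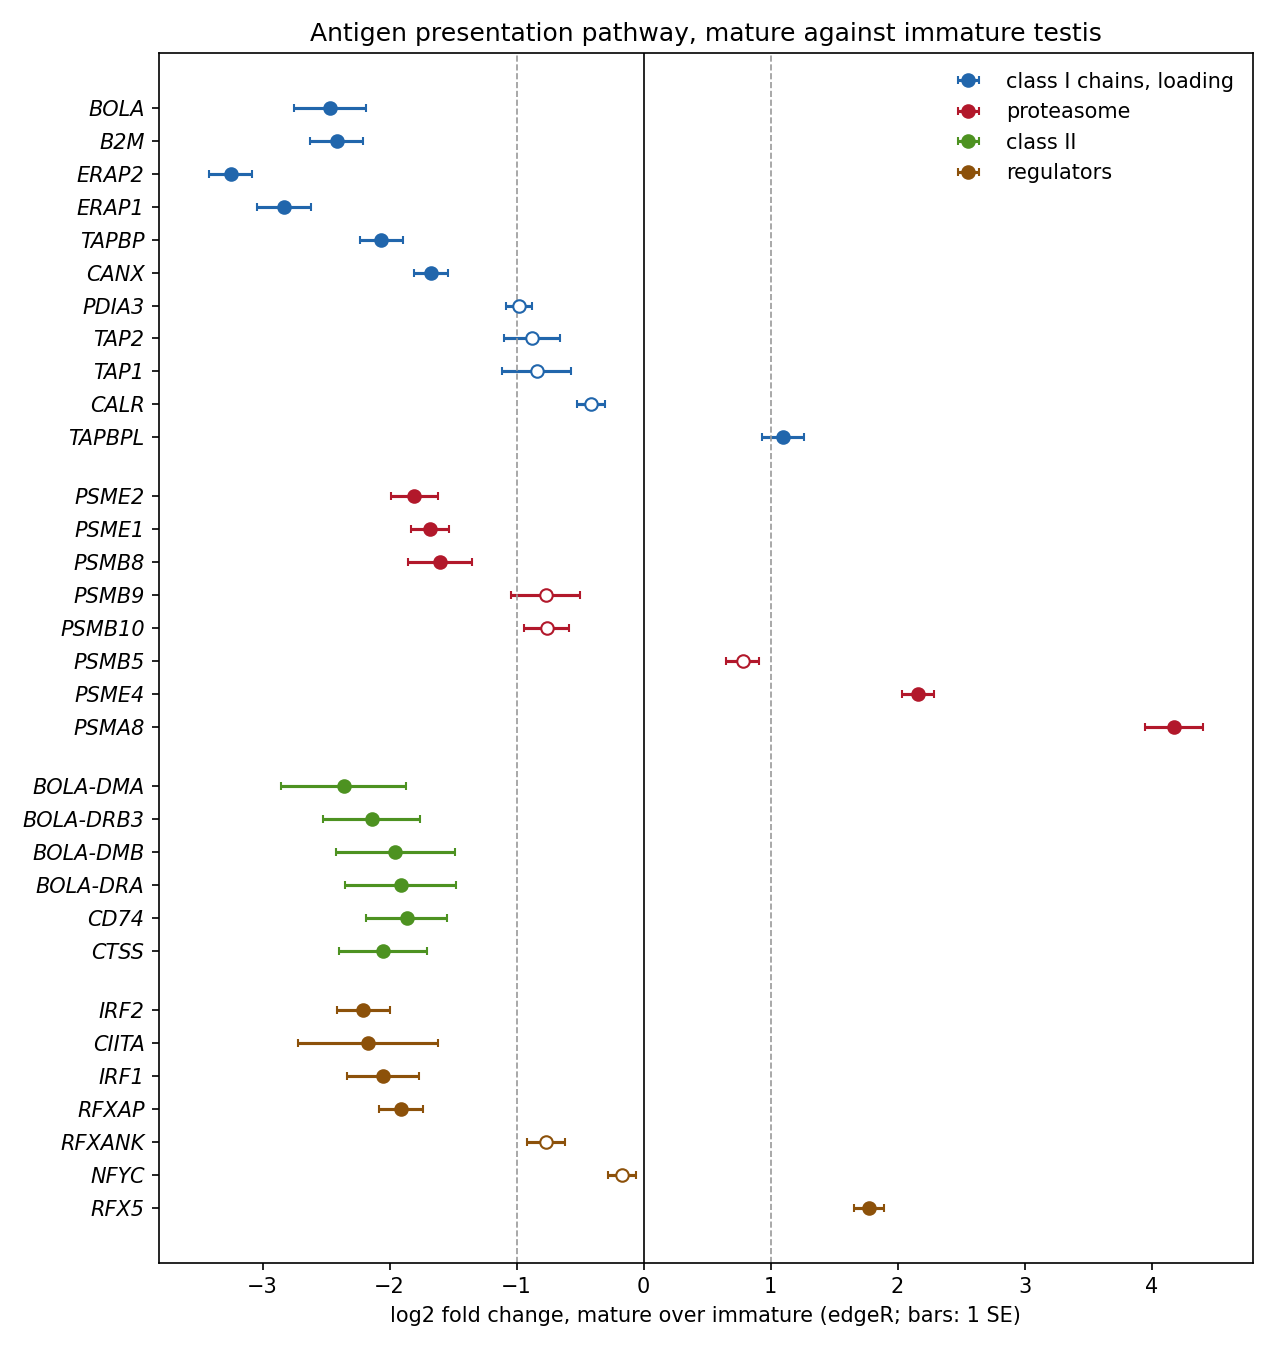
Log2 fold change of mature over immature testes for members and a selection of the other pathway genes named in the text, with bars of 1 SE from edgeR, filled symbols for called genes, open symbols for genes not called, and dashed lines at the fold threshold of 1 in either direction. Most symbols lie left of 0, and of the genes drawn TAPBPL (1.10), RFX5 (1.78), PSME4 (2.16) and PSMA8 (4.17) lie on the other side beyond the dashed line.

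Markers of immune cells and vessels moved with age too. Of the leukocyte markers, led by LAPTM5, CD37 and LCP1, 8 of 9 fell, and their summed level was 211 to 352 CPM in immature and 60.1 to 84.2 CPM in mature testes. Of the T and NK cell markers, led by CD3E, NKG7 and CD8A, 10 of 10 fell, from sums of 97.0 to 141 CPM to sums of 21.03 to 32.1 CPM. The macrophage markers split: the complement genes C1QA, C1QB and C1QC were among 7 that fell, MRC1, AIF1 and CD14 were among 4 that rose, and the sums overlapped at 142 to 421 CPM and 349 to 382 CPM. Of the B cell markers 4 of 6 rose, PAX5 and MS4A1 among them, and the sums went from 14.9 to 18.4 CPM to 53.7 to 57.1 CPM. CD79A (log2 fold change -0.32, SE 0.39) and BLK (-0.47, SE 0.47) were not called, and CD79B was too low to be tested. Of the dendritic cell markers 3 of 4 tested genes fell, FLT3, CLEC9A and BATF3, while XCR1 rose, and the sums were low, at 7.28 to 10.2 CPM and 5.03 to 6.20 CPM. All 7 endothelial markers, led by KDR, PECAM1 and CDH5, fell, from sums of 266 to 435 CPM to sums of 60.6 to 71.6 CPM. No marker of these 6 lists was at 0 in every library. The part of these cell types in the members' falls was not tested.

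The members were also divided by the leukocyte marker sum of the same library, a ratio that does not depend on the library's total. The p-values of these 7 ratios are two-sided exact permutation values, which cannot go below 0.1. The lowest of them was 0.233 once adjusted over the 7. CD74 stood at 3.10, 3.07 and 2.18 times the sum in immature and at 2.92, 3.42 and 2.94 times in mature testes (exact p = 0.6). TAPBP stood at 1.87, 2.28 and 2.13 times and at 1.67, 2.12 and 2.14 times (exact p = 0.6). For both genes the ages overlapped, as they did for BOLA-DRA (log2 difference 0.10, exact p = 0.7) and CIITA (log2 difference -0.0022, exact p = 1).

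For the other members the ages did not overlap on this ratio. TAP1 stood at 0.126, 0.143 and 0.0981 times the sum in immature and at 0.248, 0.285 and 0.298 times in mature testes. TAP2 stood at 0.0295, 0.0335 and 0.0490 times and at 0.0751, 0.0828 and 0.06995 times. Every mature ratio of these pump genes lay above every immature one, with log2 differences of 1.19 and 1.06 (exact p = 0.1 for each). B2M went the other way, from 0.778, 0.900 and 0.832 times to 0.631, 0.596 and 0.617 times, a log2 difference of -0.44 (exact p = 0.1). These ratios depend on the reference. CD37, the leukocyte marker that was not called (log2 fold change -0.15), held 23.5 of 286 CPM of the mean sum in immature testes. In mature testes it held 21.2 of 72.4 CPM. By library CD37 had 28.3, 23.7 and 18.7 CPM in immature and 24.4, 17.0 and 22.1 CPM in mature testes. With CD37 taken out of the sums, the ages overlapped for B2M. For CD74 every mature ratio then lay above every immature one. The separation of B2M and the overlap of CD74 thus rest on this marker. No p-value was computed without CD37. Over the macrophage marker sum all 7 ratios were lower in mature testes, by 1.11 to 2.74 on the log2 scale. That sum mixes 7 markers that fell with 4 that rose. MRC1, AIF1 and CD14, which rose, had means of 127, 97.6 and 73.8 CPM of its 371 CPM in mature testes. In immature testes they had 26.8, 12.6 and 7.87 CPM of 327 CPM. Over the endothelial marker sum the differences were -0.0020 for B2M, 0.61 for CD74, 0.36 for TAPBP, 0.54 for BOLA-DRA, 0.44 for CIITA, 1.63 for TAP1 and 1.50 for TAP2.

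**Figure D3:**
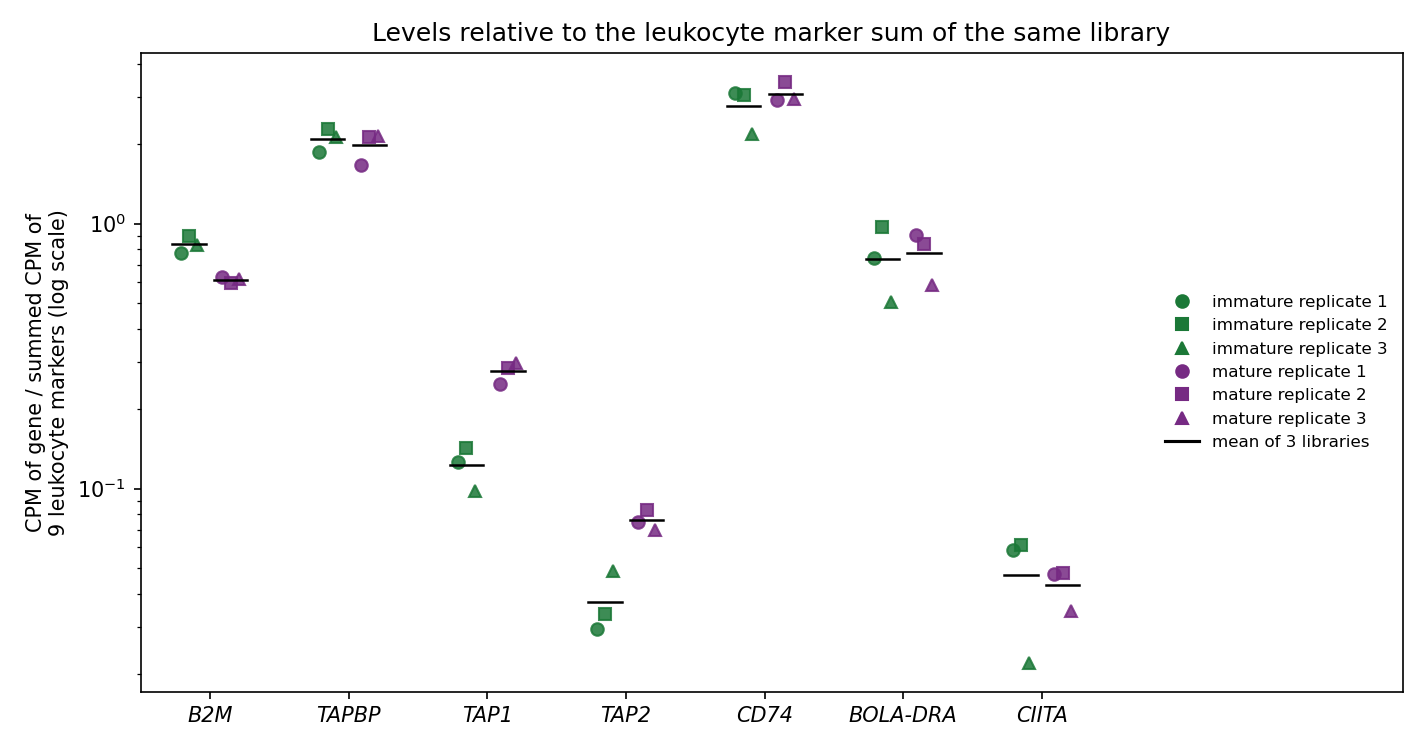
CPM of each of the 7 tested members divided by the summed CPM of 9 leukocyte markers in the same library, on a log axis, with colours and symbols by age and replicate and a black line at the mean of 3 libraries. The ages overlap for CD74, BOLA-DRA, CIITA and TAPBP, the mature libraries lie above the immature ones for TAP1 and TAP2, and below them for B2M. The places of B2M and CD74 rest on CD37, a marker in the sum.

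Ratios between genes within a library were also compared between ages. Among 62 pairs of members and pathway genes, chosen after the values were seen, the ages did not overlap in 36, and the smallest exact permutation p was 0.1 (0.172 after adjustment over the pairs). Of all 19972 single tested genes, 8159 lay lower and 8164 higher in every mature library. The share among gene pairs at large was not computed, and the pairs share genes, so the count says nothing particular about them. These ratios are not corrected for transcript length and are compared between libraries only. CD74 over BOLA-DRA was 4.18, 3.17 and 4.33 in immature and 3.23, 4.08 and 5.004 in mature testes. CIITA over BOLA-DRA was 0.0789, 0.0632 and 0.0436 and then 0.0525, 0.0570 and 0.0585. Both class II ratios overlapped between ages (exact permutation p = 0.9 and 0.7).

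Within class I, the pump genes separated from the genes that hold and complete the molecule. TAP1 over TAPBP was 0.0677, 0.0626 and 0.0460 in immature and 0.149, 0.134 and 0.139 in mature testes, a log2 difference of 1.28 without overlap. TAP1 over B2M and TAP2 over B2M differed in the same direction, by 1.64 and 1.50. B2M over BOLA, the light chain over a single heavy chain entry, had overlapping groups and a log2 difference of 0.09 (exact permutation p = 1). Over the sum of the 12 heavy chain entries, B2M was at 0.145, 0.171 and 0.140 in immature and at 0.0877, 0.0818 and 0.0776 in mature testes. On this ratio, added after the values were seen, every mature library lay below every immature one, by 0.88 on the log2 scale (exact permutation p = 0.1). JSP.1, whose groups overlapped, held 174 of 1565 CPM of the mean sum in immature and 197 of 539 CPM in mature testes. With JSP.1 taken out of each library's sum, the ages overlapped, so the separation rests on this entry. No p-value was computed without JSP.1. TAPBPL over TAPBP rose from 0.0897, 0.0711 and 0.0849 to 0.770, 0.654 and 0.779, a log2 difference of 3.17. The ratio of RFX5 over RFXAP went from 0.770, 0.805 and 0.967 to 10.6, 9.30 and 13.0, and that of PSMB8 over PSMB5 from 1.29, 1.00 and 0.531 to 0.187, 0.199 and 0.136. The other immunoproteasome subunits over those they replace gave -1.10 for PSMB10 over PSMB7, without overlap, and -0.54 for PSMB9 over PSMB6, with overlapping ages (exact permutation p = 0.4).

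TAP1 was then set beside its neighbours on the chromosome. In the gene order of the RefSeq annotation of ARS-UCD2.0, a later assembly than that of the counts, 0 genes lie between TAP1 and PSMB9 and 0 between TAP1 and PSMB8, while 3 lie between TAP1 and TAP2. TAP1 and PSMB9 are known to share a promoter region in human. TAP1 over PSMB9 was 1.59, 1.83 and 1.63 in immature and 1.70, 1.55 and 1.55 in mature testes, with overlapping ages and a log2 difference of -0.07 (exact permutation p = 0.5). TAP1 over PSMB8, in contrast, was higher in every mature library, by 0.80 on the log2 scale (exact permutation p = 0.1). TAP1 over TAP2 ran from 2 in immature replicate 3 to 4.28 in immature replicate 1 and overlapped between ages.

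**Figure D4:**
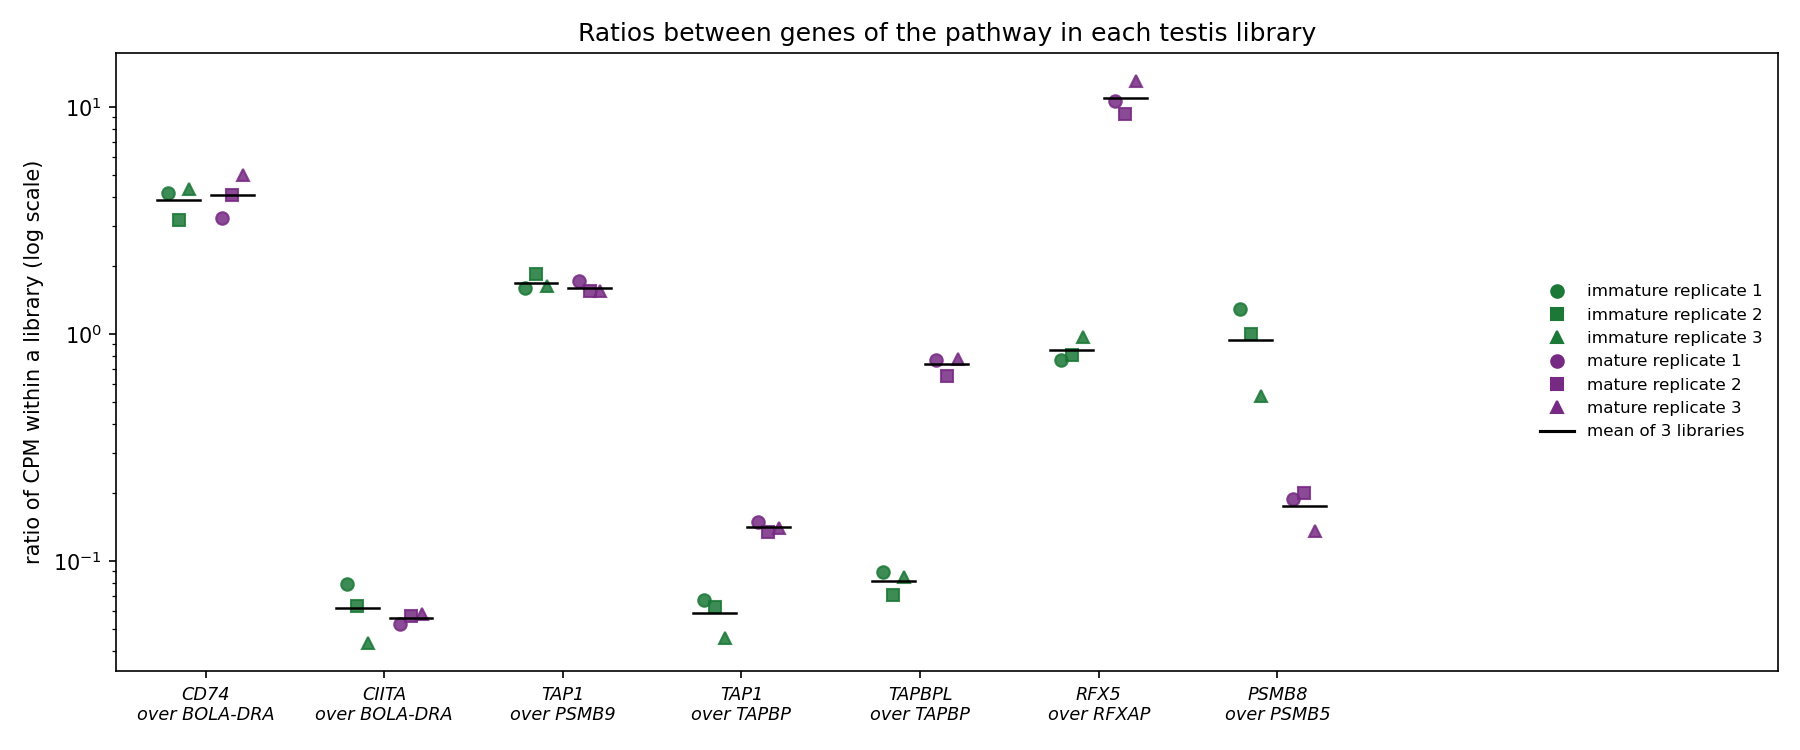
Ratios of CPM between genes of the pathway within each library, on a log axis, with colours and symbols by age and replicate and a black line at the mean of 3 libraries. The ages overlap for CD74 over BOLA-DRA, CIITA over BOLA-DRA and TAP1 over PSMB9, and are apart for TAP1 over TAPBP, TAPBPL over TAPBP, RFX5 over RFXAP and PSMB8 over PSMB5.

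The calves differed among themselves, and the members showed it to unequal degrees. The level in immature replicate 3 over the mean of the other immature libraries was 0.240 for CIITA, 0.390 for BOLA-DRA, 0.461 for CD74, 0.478 for TAP1, 0.651 for B2M, 0.677 for TAPBP and 1.02 for TAP2, where the median over all tested genes was 0.991. It was the lowest calf in 6 of the 7 members and in 35.8% of all tested genes. The coefficient of variation in immature testes was 59.5% for CIITA and 2.87% for TAP2, and in mature testes it was 31.5% and 20.8%. Mature replicate 3 was the lowest bull in 7 of 7 members and in 36.5% of all tested genes.

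Other lists were low in the same calf. The median ratio of immature replicate 3 to the other calves was 0.353 for the class II chains (9 of 11 lowest there), 0.422 for the interferon response (22 of 23), 0.661 for the immunoproteasome (5 of 5), 0.337 for macrophage markers (10 of 11), 0.671 for leukocyte markers (9 of 9) and 0.749 for T and NK cell markers (8 of 10). It was 1.18 for the list of constitutive and other proteasome genes (0 of 7) and 1.29 for endothelial markers (0 of 7). IFI6, an interferon-induced gene, had 216, 115 and 23.9 CPM in immature testes. Without this calf the log2 fold changes were -2.60 for B2M, -2.23 for TAPBP, -0.87 for TAP2, -2.15 for CD74, -2.24 for BOLA-DRA and -2.59 for CIITA, and 6 members were called lower. What set this calf apart was not tested.

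The genes most like each member were sought by Pearson's r of log2(CPM + 0.5) over the 6 libraries, among 12570 genes with a mean of at least 5 CPM. The libraries share 2 age groups, so r is high for any gene with a like change, and it is given as a description. For CIITA the highest r were with BOLA-DMB (0.9987), FOLR2 (0.9954) and MSI2 (0.9946), and for BOLA-DRA with NAIP (0.9977), BOLA-DMA (0.9971) and GUSB (0.9961). For CD74 they were with ZC3H6 (0.9985), DHX58 (0.998) and IGFALS (0.998), and for TAP1 with ZBP1 (0.9955), IGFLR1 (0.994) and ARL6IP1 (0.9926). TAP2 was most like TM2D2 (0.9954), RAB20 (0.9942) and CX3CL1 (0.9941). B2M was most like SARS2 (0.9994), FANCC (0.9994) and ZNF227 (0.9991), and TAPBP like TNRC6A, SLC12A9 and THAP3 (0.9997 each).

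Taking out each age's mean leaves the variation among animals of an age, a measure added after the values were seen. On it CIITA was again most like BOLA-DMB (r = 0.9984), and TAP1 was most like the complement gene C1QC (r = 0.9986). Between members, r of these deviations was 0.988 for CD74 with CIITA and 0.986 for TAP1 with CIITA, and 0.150 to 0.517 for TAP2 with the other 6. Immature replicate 3 stood at 0.240 of the other calves' mean for CIITA, 0.294 for BOLA-DMB, 0.461 for CD74 and 0.478 for TAP1. For TAP2 it stood at 1.02. These r thus lean on that calf, and r without it was not computed. The 6 libraries are few, and these r are a description.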

How the data were processed

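The values are raw gene counts that the authors deposited for each library, after read control by Fast-QC and Hisat2 alignment to Btau_5.0.1. Not given in the sources used here are the tool versions, annotation, read counter and strand setting, so reads of overlapping genes cannot be told apart. The authors' comparison tables (group signals, log2 fold changes and FDR from EBSeq) and the small RNA counts of 1 pool per age were not used, and 0 columns of the count table were left unused.

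Counts were fitted in R 4.3.3 with edgeR 4.0.16 (TMM, filterByExpr, robust quasi-likelihood, group as the only term), which kept 19972 of 28656 genes with a count. A call took a log2 fold change beyond 1 in size with an adjusted p under 0.05, and each SE was taken as the change divided by the root of its F statistic. Ratios were tested by two-sided exact permutation with scipy 1.17.1 (Python 3.11.15, pandas 2.3.3, numpy 2.4.6). DESeq2 1.42.0, limma 3.58.1 and other settings, 17 alternatives in all, were tried, and the fits were tested on simulated data. Each library is 1 animal, and p-values set the difference between ages against the spread among these animals.

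The members and 21 gene lists (194 genes, 187 matched, 1 of them by a synonym) were chosen with earlier results of these data known. Named genes are all members, the class II chain, immunoproteasome and regulator lists in full, up to 4 called genes per direction from the other pathway lists by size of change, the 3 most abundant markers per cell type and the 3 genes most like each member, with locus-numbered symbols left out. CANX, LNPEP, CALR, PDIA3, JSP.1, PSMB5, IFNG, ICAM1, C1QA, C1QB, C1QC, BATF3, PSMB6, PSMB7, LA-DRB, IFI6, CD79A, CD79B and BLK were named after their values were seen. Near-identical MHC copies were summed by their descriptions in the table. Some genes that this rule would name are not reported here. Promoter motifs were planned but not analysed here.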

Additional observations from a re-analysis of the deposited data

How the results depend on the processing

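No member's change reversed or lost its call under the alternatives run, and the 5 falling members were called lower under each of them. TAP1 and TAP2 sat near the fold threshold. Both were called with upper-quartile factors (-1.05 and -1.08), which moved the median of all genes by -0.20, and both were called with no fold threshold (-0.84 and -0.88). Leaving out single libraries gave log2 fold changes from -1.12 to -0.67 for TAP1, from -0.93 to -0.66 for TAP2, from -2.60 to -2.24 for B2M, from -2.23 to -1.94 for TAPBP, from -2.15 to -1.61 for CD74, from -2.24 to -1.60 for BOLA-DRA and from -2.59 to -1.83 for CIITA. Among these fits TAP1 was called only without immature replicate 3, which gave 6 members lower in place of 5. With any other single library left out, its edgeR adjusted p was 0.0564 to 0.0934 and no longer under 0.05.

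The level relative to leukocyte markers moved with the reference. Of the macrophage markers 7 fell and 4 rose, and of the leukocyte markers CD37 was not called. With macrophage markers the log2 differences were -2.74 for B2M, -2.13 for CD74, -1.11 for TAP1, -1.24 for TAP2, -2.39 for TAPBP, -2.30 for CIITA and -2.20 for BOLA-DRA. With endothelial markers, a reference chosen after seeing the data, they were -0.0020 for B2M, 0.61 for CD74, 1.63 for TAP1, 1.50 for TAP2, 0.36 for TAPBP, 0.44 for CIITA and 0.54 for BOLA-DRA. The cause was not tested.

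With the replicate number as a block, 5 members were lower, 5982 of all genes were lower and 6337 higher, and no member's call changed. The numbers name different animals, and deviations of same-numbered libraries correlated at -0.03, -0.02 and -0.01, with 0 calves closest to the bull of their own number. Depth limits NLRC5, at 17 and 4 counts.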
